A study of Mus musculus with 20 samples.

Results

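The MHC class II genes are described here in intestinal epithelial cells of mice that lack, or carry a mutant form of, one component of Toll-like receptor signalling. The group has 10 genes, given here by role: the class II chains H2-Aa, H2-Ab1 and H2-Eb1, the invariant chain Cd74, the peptide exchange factor subunits H2-DMa, H2-DMb1 and H2-DMb2, the subunits H2-Oa and H2-Ob of its inhibitor, and the transactivator Ciita. They were found by name: every non-control array probe whose gene name equals a member was taken, which gave 17 probes of 10 genes out of 41174 probes and 28482 gene names. No measured value entered that choice. To be tested, a probe had to exceed background clearly (the scanner's own mark) on 4 or more of the 20 arrays, and 14 probes of 8 genes did so. H2-DMb2 and H2-Ob did not, and are described separately.

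The arrays compare wild type mice with Trif LPS/LPS mutant mice (called Trif mutant), Tlr4 knockout, Tlr3 knockout and MyD88 knockout mice, all healthy, 28 days old and given by the labels as strain C57BBL6. Each genotype was represented by 4 individual animals, 1 single-colour Agilent array each, so that p-values measure the spread between animals. EDTA was used to free the epithelium, immune cells were removed by sedimentation, and the labels' protocols report that few CD45-positive cells were left by flow cytometry. The labels do not say at which stage the mutations act or whether littermates were used.

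Class II molecules are heterodimers of an alpha and a beta chain that carry peptides from the endocytic route to the cell surface and show them to CD4 T cells. The invariant chain fills the groove during assembly, the DM heterodimer exchanges its last fragment for other peptides, and the DO heterodimer holds DM back. Professional antigen-presenting cells make class II constitutively, and other cells, the intestinal epithelium among them, make it under interferon-gamma, in both cases through Ciita, which docks on factors bound to the X and Y boxes of class II promoters.

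The stretches around the Y box are shown so that the class II promoters can be read beside each other and beside the values below. RefSeq promoter windows (GRCm38.p6) were at hand for 7 of the 10 genes, and the first 250 bases of each, which end at the transcription start, were searched on both strands for the X box (AAC, any 2 bases, then ATGATGC), the Y box letters TGATTGG and the cyclic AMP response element letters TGACGTCA. The letters were written down with the members' promoters in view, so a match describes these windows and is no test. Capitals mark the matches, and each stretch reads 5′ to 3′ on the strand of its gene.

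H2-Aa: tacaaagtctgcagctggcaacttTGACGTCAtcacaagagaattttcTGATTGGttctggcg
H2-Eb1: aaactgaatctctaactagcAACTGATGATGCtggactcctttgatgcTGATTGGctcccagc
H2-DMb1: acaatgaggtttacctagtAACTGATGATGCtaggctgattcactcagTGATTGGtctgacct
H2-DMb2: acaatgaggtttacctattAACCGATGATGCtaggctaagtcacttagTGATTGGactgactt
H2-Oa: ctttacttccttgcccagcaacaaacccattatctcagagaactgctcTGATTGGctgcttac
H2-Ob: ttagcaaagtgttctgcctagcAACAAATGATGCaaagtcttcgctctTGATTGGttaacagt

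The stretches lie at chr17:34287859-34287921 (H2-Aa, minus strand), chr17:34305758-34305820 (H2-Eb1), chr17:34153080-34153142 (H2-DMb1), chr17:34145109-34145171 (H2-DMb2), chr17:34092286-34092348 (H2-Oa) and chr17:34238798-34238860 (H2-Ob), the last 5 on the plus strand. Of the members' 8 windows, these 6 held the Y box letters and are shown for that reason. The same letters stood in 7.23% of all 32851 promoter windows. The X box letters stood in H2-Eb1, H2-DMb1, H2-DMb2 and H2-Ob, 14 to 17 bases before the Y box, and in 10 of all windows (0.0304%). The cyclic AMP response element letters stood in H2-Aa ahead of the Y box, and in 1.55% of all windows. Neither of the 2 H2-DMa windows held any of the 3. Of the 3 patterns, the H2-Oa window held only the Y box letters. Other forms of the X box were not searched for, so a window without a match is not shown to lack one. H2-DMb2 and H2-Ob carry both boxes and are the 2 genes that did not pass the filter on dim probes.

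The arrays were of similar quality in 4 genotypes and apart in the last. Between 64.7% and 73.3% of probes were well above background on the wild type, Trif, Tlr4 and Tlr3 arrays, and between 70.9% and 85.5% on the MyD88 arrays, which lay on slides of their own and were scanned on another day and scanner. Same-numbered arrays of the other 4 genotypes shared 1 slide, so differences within a slide can be given for these only, and for MyD88 the genotype and the scan cannot be told apart. Each of the other 4 genotypes held the same position on every slide, so for these the genotype and the position cannot be told apart. Tlr3 had a mean log2 signal (relative to the 75th percentile of its array, as all log2 signals below) of -8.53 ± 0.22 (SD, n = 4) in the Tlr3 knockout against -1.51 ± 0.15 in wild type, and Myd88 of 0.86 ± 0.11 in the MyD88 knockout against 2.12 ± 0.13. The Tlr4 probe was at background in wild type too, and the Trif gene, Ticam1, was not lower in the Trif mutant (2.00 ± 0.27 against 1.33 ± 0.15), so neither checks its label. Xist, the transcript of the inactive X chromosome, was high on all 4 wild type and all 4 Tlr4 arrays, on Tlr3 replicates 1, 2 and 4 and on Trif replicate 4, and low on the other arrays: wild type and Tlr4 knockout animals were alike in sex, and the other genotypes were not matched to them.

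The class II chains were highest in Tlr4 knockout cells, intermediate in Tlr3 and MyD88 knockout cells, low in wild type and lowest in the Trif mutant. H2-Aa, the alpha chain of the I-A molecule, had processed signals of 117, 128, 90.6 and 174 on the 4 wild type arrays (probe at chr17:34421285-34421344, mm9). Its signals were 2650, 2294, 2387 and 2121 in the Tlr4 knockout and 37.0, 24.3, 24.2 and 40.1 in the Trif mutant. Both groups lay wholly apart from wild type, on opposite sides of it. In the Tlr3 knockout the H2-Aa signals were 1590, 646, 914 and 239, and in the MyD88 knockout 526, 347, 1144 and 849, again all above every wild type array.

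On the log2 scale H2-Aa was 4.31 ± 0.43 (SE) higher in Tlr4 knockout than in wild type cells (19.8-fold, adjusted p = 5.2e-06 by limma with Benjamini-Hochberg adjustment over 21880 features, as in all adjusted p below). It was 2.77 ± 0.43 higher in the Tlr3 knockout (6.81-fold, adjusted p = 0.00016) and 2.46 ± 0.43 higher in the MyD88 knockout (5.52-fold, adjusted p = 0.00033). In the Trif mutant it fell by 1.71 ± 0.43 on the log2 scale (3.27-fold lower, adjusted p = 0.0041), and that call is lost under normexp background correction (-0.17, adjusted p = 0.787). H2-Aa spanned a 64.7-fold difference between the Tlr4 knockout and the Trif mutant. In RNA from bulk cells, fewer cells with the transcript and less transcript per cell cannot be told apart, here or in any result below.

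H2-Ab1, the beta chain that pairs with H2-Aa, had signals of 5049, 5127, 3986 and 6036 in wild type cells (probe at chr17:34406059-34406118, mm9). The Tlr4 knockout gave 30794, 28090, 31707 and 30529, and the Trif mutant 1496, 1340, 1057 and 1508. The 4 Tlr4 animals agreed within 1.17-fold, the closest of any genotype for this gene, and the groups did not overlap. H2-Ab1 was 2.66 ± 0.32 higher in the Tlr4 knockout on the log2 scale (6.32-fold, adjusted p = 2.2e-05), 1.77 ± 0.32 in the Tlr3 knockout (3.4-fold, adjusted p = 0.00052) and 1.71 ± 0.32 in the MyD88 knockout (3.27-fold, adjusted p = 0.00051). It fell by 1.59 ± 0.32 in the Trif mutant (3.01-fold lower, adjusted p = 0.00069).

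H2-Eb1, the beta chain of the I-E molecule, was the most even gene of the group in wild type cells, with signals of 536, 477, 433 and 474 (probe in chr17:34452050-34452511, mm9). After scaling, these 4 arrays lay within 1.08-fold of each other. Its signals were 4902, 4194, 4304 and 3279 in the Tlr4 knockout and 212, 151, 157 and 161 in the Trif mutant, with no overlap with wild type on either side. The log2 differences from wild type were 3.17 ± 0.34 in the Tlr4 knockout (9.0-fold, adjusted p = 9e-06), 1.85 ± 0.34 in the Tlr3 knockout (adjusted p = 0.00059), 1.82 ± 0.34 in the MyD88 knockout (adjusted p = 0.00052) and -1.19 ± 0.34 in the Trif mutant (adjusted p = 0.0088; -0.65 and 0.142 under normexp). H2-Ea, the partner chain of H2-Eb1, has a probe on the array that did not pass the filter.

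**Figure D1:**
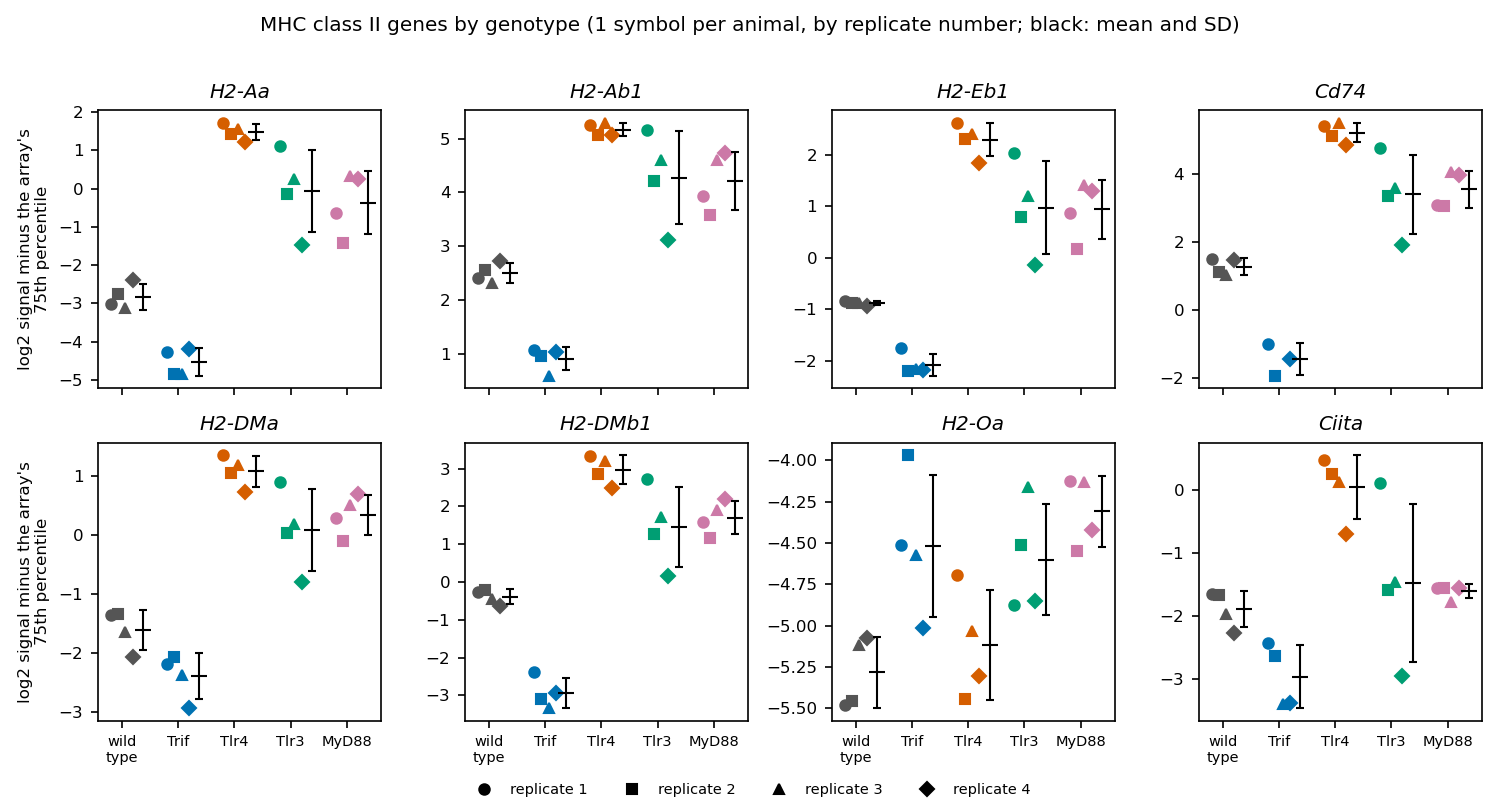
Log2 signal relative to the 75th percentile of the array (vertical axis of each panel, own range) of the 8 MHC class II genes that passed the filter, by genotype; each symbol is 1 animal, its shape gives the replicate number, and the black mark and bar give the mean and SD. For H2-Aa, H2-Ab1, H2-Eb1, Cd74, H2-DMa and H2-DMb1 every Tlr4 knockout array lies above every wild type array, and among Tlr3 knockout animals replicate 1 is highest and replicate 4 lowest; H2-Oa does not follow that order.

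Cd74 encodes the invariant chain, the chaperone of newly made class II molecules, and lies outside the class II region, on chromosome 18. Its signals were 2681, 1878, 1616 and 2528 in wild type, 34193, 29712, 36711 and 26652 in the Tlr4 knockout, and 359, 181 and 269 on the 3 Trif mutant arrays that count, since the scanner flagged the spot of replicate 3 as an outlier. The Tlr3 knockout gave 20031, 7232, 9256 and 2521 and the MyD88 knockout 6977, 7754, 15320 and 11173. Trif mutant arrays lay below and Tlr4 and MyD88 knockout arrays above all wild type arrays, while the lowest Tlr3 animal was below the highest wild type one before scaling and above all of them after it.

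Cd74 rose by 3.95 ± 0.43 on the log2 scale in the Tlr4 knockout (15.5-fold, adjusted p = 1.3e-05), by 2.14 ± 0.43 in the Tlr3 knockout (4.4-fold, adjusted p = 0.0013) and by 2.28 ± 0.43 in the MyD88 knockout (4.86-fold, adjusted p = 0.00061). Its decrease in the Trif mutant was -2.73 ± 0.46 (6.63-fold lower, n = 3 against 4, adjusted p = 0.0002). With the flagged spot kept, the Trif difference was -2.47 (adjusted p = 0.00027), so that Cd74 has the largest fall of the members only without that spot. From the Trif mutant to the Tlr4 knockout, the difference in Cd74 was 103-fold (Trif minus Tlr4, -6.68 ± 0.46 on the log2 scale, adjusted p = 8.6e-08).

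The DM genes, whose product loads peptides, moved with the chains. H2-DMb1 (probe at chr17:34297109-34297168, mm9) had signals of 800, 754, 579 and 579 in wild type, 8161, 6092, 7497 and 5124 in the Tlr4 knockout and 137, 81.5, 69.2 and 95.4 in the Trif mutant. Every Tlr4 array was above and every Trif array below the wild type arrays. The log2 difference from wild type was 3.36 ± 0.39 in the Tlr4 knockout (10.3-fold, adjusted p = 1.5e-05), 1.85 ± 0.39 in the Tlr3 knockout (adjusted p = 0.0014), 2.10 ± 0.39 in the MyD88 knockout (adjusted p = 0.00045) and -2.54 ± 0.39 in the Trif mutant (5.83-fold lower, adjusted p = 6.6e-05).

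H2-DMa, the alpha subunit of DM, changed less in the Trif mutant than its partner. Its signals were 372, 343, 255 and 217 in wild type and 157, 166, 135 and 95.7 in the Trif mutant, and after scaling the groups overlapped. The fall of 0.78 ± 0.29 on the log2 scale passed narrowly (adjusted p = 0.037) and did not pass without wild type replicate 1, 2 or 3, without Trif replicate 3 or 4, or under normexp (-0.19, adjusted p = 0.592). In the other direction H2-DMa kept pace: with 2047, 1740, 1855 and 1510 it was 2.68 ± 0.29 higher in the Tlr4 knockout (6.4-fold, adjusted p = 9.4e-06), and it was 1.68 ± 0.29 higher in the Tlr3 knockout (adjusted p = 0.00037) and 1.94 ± 0.29 higher in the MyD88 knockout (adjusted p = 9.4e-05).

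H2-DMb2, a second DM beta gene, was well above background on 3 of 20 arrays, all of the MyD88 knockout. Its signals there were 10.2, 4.37, 9.01 and 7.42, and on the other arrays they did not exceed 2.90. No test is given, since the probe is above background in that group alone. The MyD88 arrays also had more probes above background in general, as given above, and the part of that in this result was not tested.

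The DO inhibitor genes did not follow the chains. H2-Oa was dim, with signals of 21.3, 19.8, 22.9 and 26.9 in wild type and 31.1, 19.4, 24.9 and 23.0 in the Tlr4 knockout, where the groups overlapped (log2 difference 0.16 ± 0.22, adjusted p = 0.73). It was 0.77 ± 0.22 higher in the Trif mutant (adjusted p = 0.0083), in which the 3 chains, Cd74 and both measured DM genes fell, 0.68 ± 0.22 higher in the Tlr3 knockout (adjusted p = 0.019) and 0.98 ± 0.22 higher in the MyD88 knockout (adjusted p = 0.0018). The median of all features was itself 0.19, 0.22 and 0.31 higher in those 3 genotypes, and the calls depend on the processing. Under quantile normalization H2-Oa differed by 0.36 (adjusted p = 0.208) in the Tlr3 and 0.40 (adjusted p = 0.139) in the MyD88 knockout, and with Xist as a covariate by 0.35 (adjusted p = 0.277) in the Trif mutant and 0.43 (adjusted p = 0.21) in the MyD88 knockout. Under normexp none of the 3 calls held, and that in the Tlr3 knockout was also lost under median scaling and without wild type replicate 1 or 2 or Tlr3 replicate 3. The 2 H2-Ob probes were well above background on 0 and on 1 of 20 arrays. That array was wild type replicate 2, with a signal of 214 on a single spot, while the other arrays did not exceed 10.2.

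Ciita, the master switch of class II transcription, was raised in 1 of the 4 genotypes. Its signals were 302, 273, 202 and 188 in wild type (probe at chr16:10526303-10526362, mm9) and 1114, 1008, 892 and 564 in the Tlr4 knockout. The groups did not overlap, and Ciita was 1.93 ± 0.44 higher on the log2 scale (3.82-fold, adjusted p = 0.0061). The MyD88 knockout gave 276, 313, 266 and 241, overlapping wild type, and a log2 difference of 0.28 ± 0.44 (adjusted p = 0.61), beside rises of 1.71 to 2.46 in the chains, Cd74 and the DM genes of the same animals. The Tlr3 knockout gave 787, 235, 280 and 85.2, from above to below every wild type array, with a difference of 0.42 ± 0.44 (adjusted p = 0.47).

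In the Trif mutant Ciita signals were 132, 111, 66.0 and 69.9, all under the lowest wild type array. The log2 difference of -1.07 ± 0.44 missed the threshold (adjusted p = 0.058). It passed under 7 of 22 other settings, among them the shared slide as a block (adjusted p = 0.0166). Over all settings it ran from -1.25 to -0.25, with adjusted p by limma up to 0.614. Against the Tlr4 knockout, the Trif mutant was 3.01 ± 0.44 lower (8.03-fold, adjusted p = 5.1e-05).

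**Figure D2:**
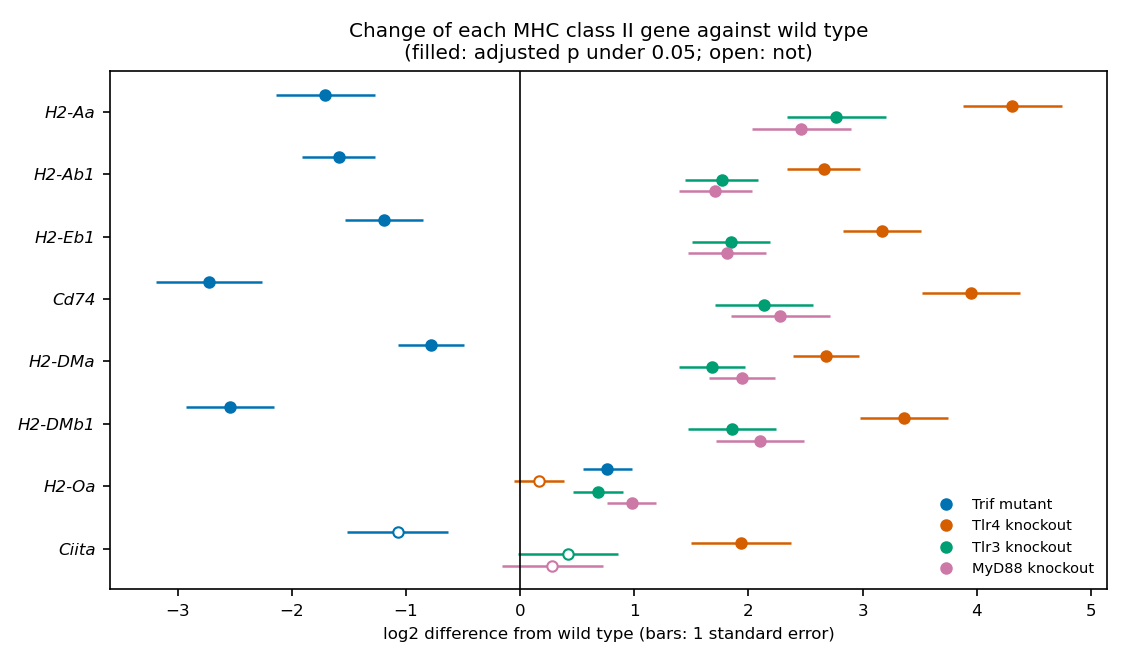
Log2 difference from wild type (horizontal axis) of each MHC class II gene in the 4 other genotypes, with bars of 1 standard error; filled symbols passed an adjusted p of 0.05 and open ones did not. H2-Aa and Cd74 show the largest rises in the Tlr4 knockout (4.31 and 3.95), Cd74 (without its flagged spot) and H2-DMb1 the largest falls in the Trif mutant (-2.73 and -2.54), and Ciita is filled in the Tlr4 knockout only.

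Counted over the 8 genes tested, 7 rose in the Tlr4 knockout, where 9.73% of all features rose and 3.06% fell. Their median log2 difference was 2.92, against 0.02 over all features. In the Tlr3 knockout 7 rose (25.1% of all features rose and 13.7% fell; median 1.81 against 0.22), and in the MyD88 knockout 7 rose (37.4% of all features rose and 12.1% fell; median 1.88 against 0.31). The Trif mutant was the only genotype with falls against wild type: 6 genes fell and H2-Oa rose (15.8% of all features fell and 28.6% rose; median -1.39 against 0.19). These 4 comparisons share the wild type arrays and are no independent evidence of each other.

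The split of all features depends on the scaling. Of the features called, those higher than wild type made up 75.6% in the MyD88 knockout, 64.7% in the Tlr3 knockout, 76.1% in the Tlr4 knockout and 64.5% in the Trif mutant, and with each array scaled to its median instead 34.2%, 36.0%, 52.1% and 52.2%. The rises of the chains, Cd74 and the DM genes in the 3 knockouts kept their direction and their call under every setting that tested them; a filter that asks for all 20 arrays leaves Cd74 out.

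The order of the levels was tested between the mutant genotypes too. The 3 chains, Cd74, both DM genes and Ciita were lower in the Tlr3 than in the Tlr4 knockout (7 of 8, where 13.5% of all features were lower and 17% higher), by 0.89 ± 0.32 for H2-Ab1 (adjusted p = 0.043) to 1.82 ± 0.43 for Cd74 (adjusted p = 0.0075). The 2 groups lay wholly apart for 2 of the 8 genes, both lower, as 12.1% of all features were. Of the 7 calls, that of Cd74 alone held under every setting that tested it, and 4 were left without Tlr4 replicate 1. The same 7 genes were lower in the MyD88 than in the Tlr4 knockout (14.7% of all features were lower), by 0.74 ± 0.29 for H2-DMa to 1.85 ± 0.43 for H2-Aa, and H2-Oa was higher (33.1% of all features were). Of these calls, those of Ciita, H2-Aa and H2-Eb1 held under every setting; 4 genes were lower under normexp and 3 with Xist as a covariate. These 2 comparisons share the Tlr4 arrays.

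Tlr3 and MyD88 knockout cells were neighbours in the order, and 0 of the 8 genes passed the threshold between them by limma, while 25.3% of all features were higher and 33.3% lower in the Tlr3 knockout. At an unadjusted p of 0.05 the count was 0 as well. The differences ran from -0.29 ± 0.22 for H2-Oa to 0.30 ± 0.43 for H2-Aa. Standard errors of 0.22 to 0.44 leave equal levels not shown.

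The Trif mutant was lowest for all of these genes but H2-Oa. The 3 chains, Cd74, both DM genes and Ciita were lower than in the Tlr3 knockout (7 of 8, where 10.2% of all features were lower and 9.98% higher). For Ciita that call (-1.49 ± 0.44, adjusted p = 0.024) is lost without Tlr3 replicate 1 (-0.96, adjusted p = 0.073), without Trif replicate 3 or 4 or Tlr3 replicate 3, with only these genotypes fitted (adjusted p = 0.134) and under normexp (-0.68, adjusted p = 0.402). They were lower than in the Tlr4 knockout, with H2-Oa higher (17.8% and 23.1% of all features), and lower than in the MyD88 knockout (37.2% of all features were lower and 26.9% higher), there without Ciita under normexp (-0.44, adjusted p = 0.392). Among these, H2-DMb1 was -5.91 ± 0.39 log2 units from the Tlr4 knockout, 21.1-fold lower than in the Tlr3 knockout and 25.0-fold lower than in the MyD88 knockout.

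Animals of the Tlr3 knockout differed most among themselves. Replicate 1 was the highest and replicate 4 the lowest for each of the 3 chains, Cd74, both DM genes and Ciita. The span from lowest to highest animal was 7.23-fold for Cd74, 8.41-fold for Ciita and 3.23-fold for H2-DMa, while in the Tlr4 knockout the same genes spanned 1.54-fold, 2.24-fold and 1.54-fold. Tlr3 replicate 3, the animal with low Xist, lay between the others. In MyD88 knockout animals replicate 2 was lowest for H2-Aa, H2-Ab1, H2-Eb1, Cd74, H2-DMa and H2-DMb1, at most 3.33-fold below the highest. After the genotype means were taken off, pairs among the chains, Cd74, the DM genes and Ciita correlated over the 20 arrays at r from 0.62 (Ciita with H2-Aa) to 0.97 (H2-Aa with H2-Ab1), and pairs with H2-Oa at 0.02 to 0.29, values that share each array's scaling. In the pairs without H2-Oa the Tlr3 animals, which spread most, weigh most.

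Within slides, the chains, Cd74 and the DM genes differed from wild type in the same direction on every slide. Position on the slide went with genotype in these differences. The median difference over the members between Tlr4 knockout and wild type was 3.15, 2.78, 3.12 and 2.79 log2 units on the 4 slides. Between Tlr3 knockout and wild type it was 2.81, 1.56, 2.12 and 0.62, the last on the slide of replicate 4, where Cd74 differed by 0.45 and H2-Aa by 0.91. Between the Trif mutant and wild type it was -1.08, -1.47, -1.43 and -1.46. The last of these slides holds the Trif animal with high Xist, where both animals were alike in Xist. With Xist as a covariate in the fit, 6 genes still fell in the Trif mutant and none was called higher.

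**Figure D3:**
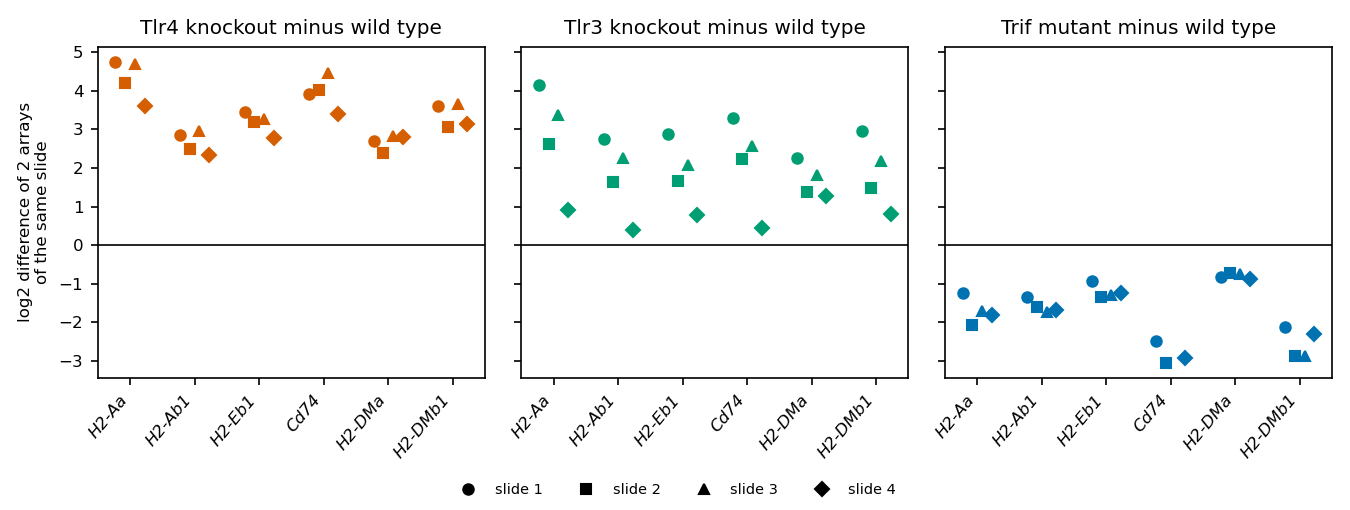
Log2 difference between 2 arrays of the same slide (vertical axis), for Tlr4 knockout, Tlr3 knockout and Trif mutant each minus wild type, for the 3 chains, Cd74 and the 2 DM genes; symbol shapes give the slide. All Tlr4 and Tlr3 values are above 0 and all Trif values below it; the Tlr3 values of slide 4 are the lowest of their genotype for every gene.

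Different probes of a gene gave the same picture, with 1 exception. The H2-Aa probes differed from wild type by 4.31 and 4.32 in the Tlr4 knockout and by -1.71 and -1.90 in the Trif mutant, and the 2 H2-DMb1 probes by 3.36 and 3.33 and by -2.54 and -2.51. One of the H2-DMb1 probes is listed in the files with an H2-DMb2 accession too, so it may not tell these near-identical genes apart. The 2 H2-Oa probes differed from wild type by 0.98 and 1.12 in the MyD88 knockout and by 0.16 and 0.37 in the Tlr4 knockout.

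H2-Ab1 is covered by 4 probes, of which 3 agree closely. Their differences from wild type were 2.66, 2.80 and 2.69 in the Tlr4 knockout and -1.59, -1.68 and -2.01 in the Trif mutant. The exception, A_51_P215242, read 13.3 on wild type replicate 3 but 486, 457 and 547 on the other wild type arrays, on 1 spot per array. With that reading in, it gave 4.21 ± 0.82 in the Tlr4 knockout and -0.61 ± 0.82 (adjusted p = 0.58) in the Trif mutant. The other H2-Ab1 probes read 992, 182 and 3986 on the array of replicate 3. The highest reading of the same probes on the other wild type arrays was 1382, 343 and 6036.

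**Figure D4:**
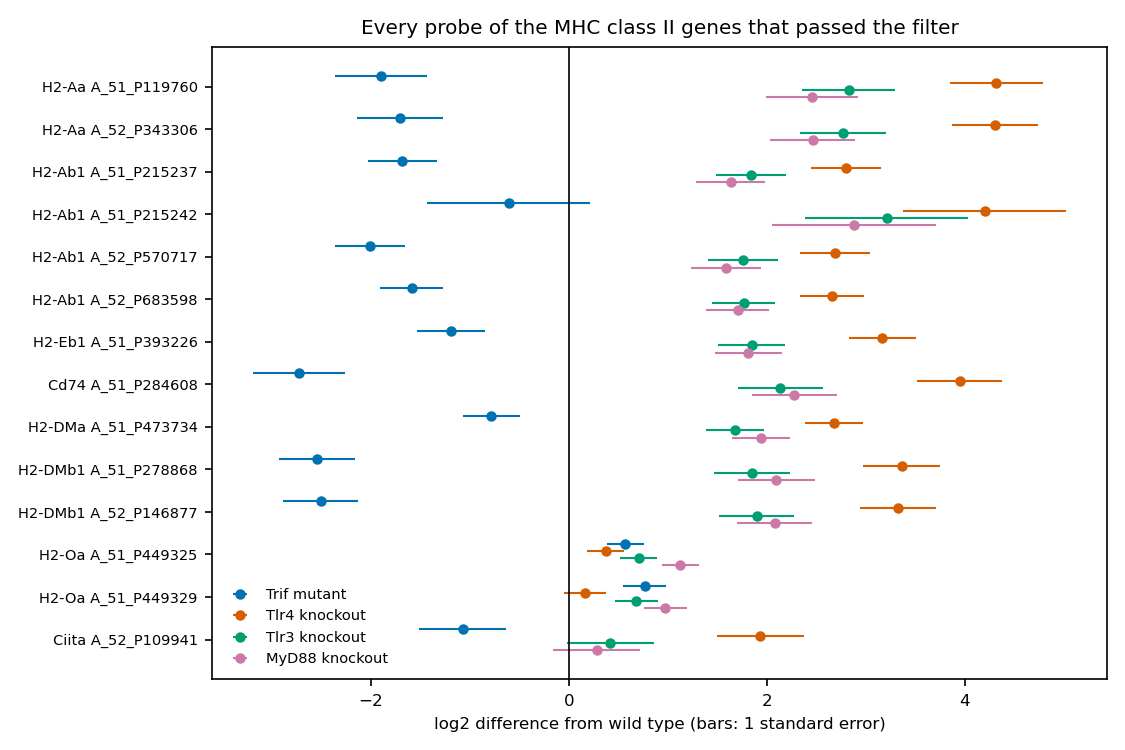
Log2 difference from wild type (horizontal axis, bars of 1 standard error) of the 14 probes of MHC class II genes that passed the filter, in the 4 other genotypes. Probes of one gene lie close together except H2-Ab1 A_51_P215242, whose wild type mean rests on 1 low spot and whose bars are the widest (0.82).

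The partners of Ciita on class II promoters moved in both directions, by at most 0.85 log2 units where called. All 8 regulators listed (the X box factors Rfx5, Rfxank and Rfxap, the Y box factors Nfya, Nfyb and Nfyc, Creb1, and Nlrc5, the switch of class I genes) passed the filter. In the Tlr4 knockout only Rfx5 rose, by 0.59 ± 0.17 (adjusted p = 0.027). In the MyD88 knockout Rfx5 (0.61 ± 0.17) and Nfya (0.85 ± 0.26) rose while Creb1 (-0.80 ± 0.14) and Nfyc (-0.59 ± 0.11) fell. Rfxank rose in the Tlr3 knockout (0.59 ± 0.12) and in the Trif mutant (0.74 ± 0.12), the latter together with Rfxap (0.25 ± 0.08) and against a fall of Nfyc (-0.28 ± 0.11). Nfyb and Nlrc5 passed the threshold in no genotype.

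Proteases and turnover factors of the class II route did not move as the members did. Of 9 measured, 2 fell in the Tlr4 knockout, where 3.06% of all features fell, and the others were not called. The 2 were the cathepsins Ctsl (-0.61 ± 0.15), which trims the invariant chain, and Ctsb (-0.39 ± 0.11). In the Trif mutant, where the members fell and 28.6% of all features rose, 5 of the 9 rose. March8 (0.61 ± 0.10), a ubiquitin ligase that removes class II from the surface, and Ctsd (0.57 ± 0.10) led. In the Tlr3 knockout 6 rose, where 25.1% of all features did, with Lgmn (0.82 ± 0.22) the largest. In the MyD88 knockout 2 rose and 2 fell (37.4% and 12.1% of all features), with March1 (1.48 ± 0.45) the largest rise. Of the class II region's other genes, H2-Eb2 rose in the MyD88 knockout (1.22 ± 0.48, adjusted p = 0.043) and Brd2, a chromatin reader, in the Trif mutant (0.31 ± 0.11). The H2-Eb2 probe was well above background on 4 arrays, the fewest that the filter accepts, and on no wild type array. Its rise is thus measured from a level at background. The MyD88 arrays had more probes above background in general, and the part of that in the rises of H2-Eb2 and March1 was not tested.

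Genes induced by interferon-gamma fell with the class II genes in the Trif mutant and were mostly not called where class II rose. Of 14 measured, 8 fell in the Trif mutant, where 15.8% of all features fell; Iigp1 (-2.56 ± 0.68), Gbp2 (-1.35 ± 0.50) and Irgm1 (-1.26 ± 0.26), GTPases of cell-autonomous defence, fell most. In the Tlr4 knockout, where 9.73% of all features rose, 1 of the 14 rose, Iigp1 (2.61 ± 0.68, adjusted p = 0.015). The median log2 difference was 0.41, against 2.92 for the members and 0.02 over all features. At an unadjusted p of 0.05, 4 of the 14 were higher and 0 lower. In the Tlr3 knockout, where 25.1% of all features rose, 1 rose, the tryptophan-degrading enzyme Ido1 (1.93 ± 0.52). There 6 of the 14 were higher and 0 lower at an unadjusted p of 0.05, and the median was 0.54, against 0.22 over all features. In the MyD88 knockout, where 12.1% of all features fell, Gbp6 (-1.05 ± 0.29) and the peptide transporter gene Tap1 (-0.71 ± 0.19) fell.

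Of 11 genes of the interferon-gamma pathway itself, 0 passed the threshold in the Tlr4 knockout by limma, and 1 was lower at an unadjusted p of 0.05. Over all features 9.73% rose and 3.06% fell there. Ifng, the cytokine, fell in the Trif mutant (-1.5 ± 0.57, adjusted p = 0.044), in which the receptor chain gene Ifngr2 rose (1.09 ± 0.16), as did 2 more of the 11, and 1 more fell. Over all features 28.6% rose and 15.8% fell in the Trif mutant. In the MyD88 knockout, where 37.4% of all features rose and 12.1% fell, 2 rose, Il12a (2.10 ± 0.34) and Ifng (1.40 ± 0.53, adjusted p = 0.038). In the same genotype 5 fell, Il18 (-1.68 ± 0.21) the most. The Ifng probe was well above background on only 11 arrays of the series and the Il12a probe on 15, and the other pathway genes on every array. Of the 11 genes, 10 were well above background on each Trif mutant array, 9 to 11 on wild type arrays and all 11 on MyD88 arrays. The changes of Ifng and Il12a are thus measured partly from levels at background. The part of the MyD88 arrays' larger share of probes above background in these 2 rises was not tested. In the Tlr3 knockout 6 of the 11 rose, by 0.38 to 0.63, where 25.1% of all features rose. Of the costimulatory genes, 5 passed the filter, and in the Tlr4 knockout 0 of these passed the threshold by limma and 0 at an unadjusted p of 0.05. In the MyD88 knockout Cd80 (2.26 ± 0.34) and Cd40 (0.73 ± 0.17) rose. The Cd80 probe was well above background on only 4 arrays, the fewest that the filter accepts. The part of the MyD88 arrays' larger share of probes above background in its rise was not tested. Cd276 fell in the Tlr3 knockout (-1.09 ± 0.19) and the Trif mutant (-1.92 ± 0.19), in both with a rise of Icosl (0.62 ± 0.22 and 0.82 ± 0.22).

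Because leukocytes make class II constitutively, their markers are given beside the members. In the Tlr4 knockout, where the members rose most, 9.73% of all features rose and 3.06% fell. There 0 of 10 B cell genes passed the threshold by limma (0 at an unadjusted p of 0.05). Of 6 pan-leukocyte genes only Laptm5, a lysosomal protein of blood cells, did, by falling (-1.21 ± 0.29). The summed level of the pan-leukocyte genes, in units of each array's 75th percentile, was 1.88 to 2.60 in the Tlr4 knockout and 2.41 to 4.45 in wild type, and that of 12 B cell genes 0.42 to 0.80 and 0.61 to 0.79. Of 7 dendritic cell genes 1 rose, the lectin Clec10a (1.80 ± 0.41), which also rose in the Trif mutant (2.36 ± 0.41), where the members fell; the dendritic cell sum was 0.47 to 0.54 against 0.38 to 0.58 in wild type. Of 11 macrophage and monocyte genes Cd68 rose (0.74 ± 0.17) and Fcgr1 fell (-0.85 ± 0.24), with sums of 21.4 to 58.9 against 37.4 to 74.7 in wild type. Of 12 T and NK lymphocyte genes, Gzma fell (-0.94 ± 0.28). Of the 12 B cell genes, 11 were well above background on Tlr4 replicate 1 and 5 to 6 on the other Tlr4 arrays, against 6 to 7 in wild type. Of 9 dendritic cell genes 6 to 7 were, against 5 to 7 in wild type. Ccr7 and Cd209a, markers of dendritic cells, and Bank1, of B cells, were well above background on none of the 4 Tlr4 arrays. These probes were dim in the whole series, with Ccr7 well above background on 1 array, Cd209a on 0 and Bank1 on 3. Their absence thus does not set the Tlr4 knockout apart.

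In the MyD88 knockout, where 37.4% of all features rose, 5 of 10 B cell genes rose, led by Cr2 (2.24 ± 0.33), Ms4a1 (2.15 ± 0.53) and Fcer2a (2.01 ± 0.46), as did 4 of 7 dendritic cell genes, with Clec10a (2.33 ± 0.41) first, and 7 of 11 macrophage and monocyte genes, with Lyz2 (1.39 ± 0.35) among them. Of the 12 T and NK lymphocyte genes 3 rose, Cd3e (1.31 ± 0.29) the most. That last count is a smaller share than that of all features, and the B cell count is not far above it. The summed levels were 0.82 to 1.52 for B cell genes, 0.55 to 2.08 for dendritic cell genes and 92.9 to 197 for macrophage and monocyte genes; the first and last of these lie above every wild type array. The pan-leukocyte sum was 2.59 to 4.51, within the wild type range but for its upper end, and Laptm5 fell (-0.82 ± 0.29). The part of these cells in the class II rise of MyD88 knockout arrays was not tested.

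In the Tlr3 knockout, where 25.1% of all features rose, 0 of 6 pan-leukocyte genes passed the threshold by limma (3 were higher at an unadjusted p of 0.05). Of 7 dendritic cell genes 3 rose (Zbtb46 by 1.38 ± 0.27), with sums of 0.70 to 0.91, above the wild type range. Its macrophage and monocyte sum, 11.8 to 24.3, lay below the wild type range, with Lyz2 down (-1.71 ± 0.35) and the mannose receptor gene Mrc1 up (2.64 ± 0.44). Bright genes weigh most in such a sum of linear signals. Gene by gene, 2 of the 11 macrophage and monocyte genes rose and 1 fell, with a median log2 difference of 0.25. In the Trif mutant the B cell sum was 0.32 to 0.37, under every wild type array, with Cd79b (-1.87 ± 0.27) the only B cell gene that fell, and Ptprc, which encodes CD45, rose (0.80 ± 0.26), as did Mrc1 (3.15 ± 0.44). Of the T and NK lymphocyte genes Cd8b1 (-1.92 ± 0.43) and Cd5 fell in the Trif mutant and Klrd1 rose, and 1 of the 12 rose in the Tlr3 knockout. The part of these differences in the class II changes was not tested. Epithelial genes were high on every array: all 11 were well above background throughout, and in the Tlr4 knockout 0 of the 11 passed the threshold by limma, with 1 higher at an unadjusted p of 0.05. In the Trif mutant 8 of them rose and 2 fell, in the Tlr3 knockout 6 rose and 1 fell, and in the MyD88 knockout 4 rose and 1 fell. Over all features 28.6%, 25.1% and 37.4% rose and 15.8%, 13.7% and 12.1% fell in these genotypes.

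**Figure D5:**
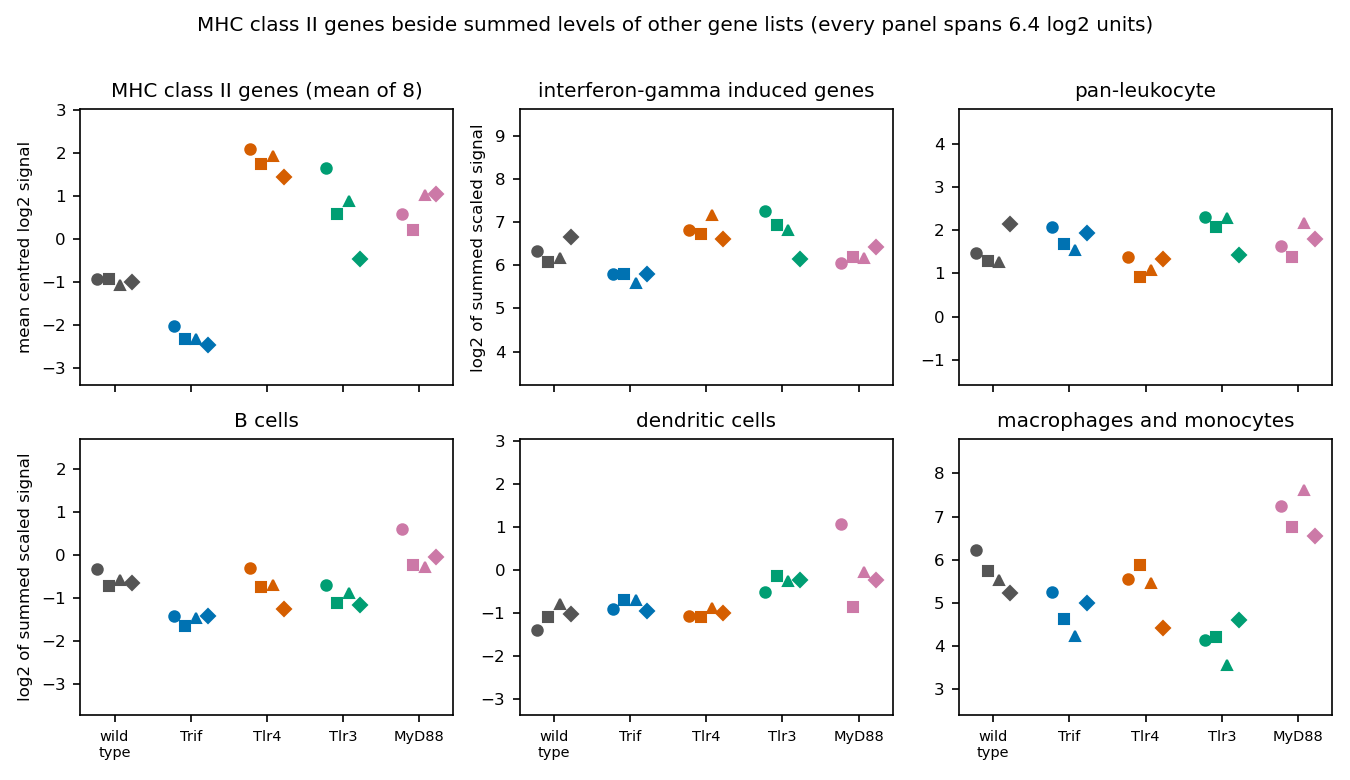
MHC class II genes (mean of 8 genes, each centred on its mean over the arrays) and, as log2 of the summed scaled signal, interferon-gamma induced genes and markers of 4 leukocyte classes, by genotype; each symbol is 1 animal, and every panel spans 6.4 log2 units. The class II genes are on average highest in the Tlr4 knockout and lowest in the Trif mutant. The macrophage and B cell sums are highest in the MyD88 knockout. The interferon-gamma induced sum is lowest in the Trif mutant, and its median is higher in the Tlr4 and Tlr3 knockouts than in wild type.

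Over all 20 arrays, the feature most like the mean of the 8 members was AK005018 (Pearson r = 0.99, Spearman rho = 0.98), a cDNA described in the files as a class II antigen without a gene name or position. Its mean log2 signals were -3.55 in the Trif mutant, -1.93 in wild type, 0.03 in the Tlr3 knockout, 0.05 in the MyD88 knockout and 1.11 in the Tlr4 knockout, the members' order. Sec61a2, a subunit of the channel through which new chains enter the endoplasmic reticulum (r = 0.95), Baiap2l1 (0.93), the immunoproteasome subunit gene Psmb9 (0.92), Parp3 (0.91), the Mediator subunit genes Med20 (0.91) and Med21 (0.90), and 9230110I02Rik (0.90) followed. Their range over genotypes was smaller: the mean of Sec61a2 ran from -2.66 in the Trif mutant to -1.36 in the Tlr4 knockout and that of Psmb9 from 3.53 to 4.64.

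When the genotype means were taken off, so that only differences between animals of a genotype remained, AK005018 was again first (Pearson r = 0.91, Spearman rho = 0.74). By Pearson r it was followed by Bcl2a1b (0.80), a survival factor of leukocytes, Akna (0.80), Tmem130 (0.79), Psmb9 (0.79), Trerf1 (0.79), Edaradd (0.78) and Zfp961 (0.78). Psmb9 and AK005018 were the only features among the first 8 both ways. Of the members themselves, H2-Aa, H2-Ab1, H2-Eb1, Cd74, H2-DMa and H2-DMb1 correlated with the mean they belong to at 0.98 or above and Ciita at 0.88, whereas H2-Oa did not (r = -0.04). These correlations describe 20 arrays that fall into 5 genotypes and share their scaling.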

How the data were processed

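RNA of intestinal epithelial cells was hybridised to single-colour Agilent arrays, which were read with Agilent Feature Extraction 10.7.3.1, per the file headers. The intensity used is the deposited processed signal of each spot, which is linear and, per the file headers, corrected by spatial and multiplicative detrending with surrogate values for dim spots; probe positions are on mm9. No depth applies to arrays; their number limits the precision.

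Outlier-flagged and control spots were left out, the mean log2 of each probe's remaining spots was taken, and each array's 75th percentile was subtracted. The filter kept probes marked well above background on 4 or more arrays (31537 of 41174), and the brightest probe stood for a gene with several, which left 21880 features. Genotype means were fitted over all 20 arrays with limma 3.58.1 in R 4.3.3 (lmFit, eBayes; tested on simulated data), and p-values were adjusted by Benjamini-Hochberg with a threshold of 0.05. Folds are 2 to the power of the log2 difference.

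Wild type and Tlr4 arrays of the same number, which share a slide per the file headers, deviated together (r = 0.17 to 0.35); other genotypes did so less regularly. The deposited value table, equal to the processed signal times 1 factor per array, served as an alternative.

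The members and gene lists were chosen with earlier results of these data known. Named were all members and regulators, of each other list at most 3 genes with the largest change (all genes of lists of up to 6), markers at background, and the features most correlated with the members. Gene symbols followed the files, updated through RefSeq.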

Additional observations from a re-analysis of the deposited data

Results flagged for a closer look

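Within each genotype, the highest and the lowest of the 4 arrays were set against the other arrays by Dixon's ratio, the gap to the nearest array over the whole range, for each member probe and genotype with 4 values and at least 1 array well above background. Of 71 groups tested 4 exceeded the 95% critical value, and 3.5 would by chance at 1 in 20. H2-Ab1 probe A_51_P215242 was lowest on wild type replicate 3 (ratio 0.953), at a signal of 13.3 against 457 to 547. H2-Eb1 was highest on Trif mutant replicate 1 (ratio 0.899), at 212 against 151 to 161. The second H2-DMb1 probe, A_52_P146877, was lowest on wild type replicate 4 (ratio 0.872), at 93.5 against 116 to 133. Ciita was lowest on MyD88 knockout replicate 3 (ratio 0.978), where the other 3 arrays lay so close together, at log2 signals of -1.56, that a value of -1.78 stood apart.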

How the results depend on the processing

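Of 1718 values of single genes recomputed under other settings, 1633 kept their direction and side of the threshold, 76 lost the call, 8 gained one and 1 turned sign (H2-Oa, MyD88 against Tlr4 knockout, -0.0585 under normexp). All 7 rises in the Tlr4 knockout held under every setting that tested the gene (Cd74 is not tested where all 20 arrays must be above background), as did 6 of 7 in the Tlr3 and 6 of 7 in the MyD88 knockout, H2-Oa being the exception in both. In the Trif mutant 3 of 7 calls against wild type held throughout: H2-Ab1, H2-DMb1 and Cd74. Under normexp the count of genes lower in the Trif mutant than in wild type went from 6 to 3, lower in Tlr3 than in Tlr4 knockout from 7 to 1, and lower in MyD88 than in Tlr4 knockout from 7 to 4; H2-Oa was no longer higher in any of Trif against wild type, Trif against Tlr4 and MyD88 against Tlr4 (0 each). With Xist as a covariate those 3 counts of higher genes were also 0, and 3 genes were lower in MyD88 than in Tlr4 knockout. Quantile normalization gave 0 higher in MyD88 than in Tlr4 knockout. Without the filter on dim probes 2 were higher there and 1 was lower in Tlr3 than in MyD88 knockout. Higher in Trif than in Tlr4 was 0 with only those genotypes fitted and 0 with the replicate block (H2-Oa 0.60, adjusted p = 0.0559). The replicate block changed 1 more call, Ciita in the Trif mutant against wild type (-1.07, adjusted p = 0.0166). Leaving out 1 array at a time gave 0 to 1 genes higher in Trif than in Tlr4, 0 to 1 higher and 4 to 7 lower in Tlr3 than in Tlr4 knockout; the 1 and the 4 of the Tlr3 comparison come without Tlr4 replicate 1. Keeping outlier-flagged spots and leaving out the MyD88 arrays were chosen after seeing the data. The causes were not tested. Dim signals near background limit H2-Oa, H2-Ob and H2-DMb2.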
